A study of Mus musculus with 23 samples.

Results

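The Schlafen family was followed in the whole right lung of mice without a working cystic fibrosis gene and of their controls. Every probe set annotated with a single symbol among Slfn1, Slfn2, Slfn3, Slfn4, Slfn5, Slfn8 and Slfn9 was taken, which gave 11 probe sets of 7 genes out of 45037 probe sets tested and 18193 genes with a probe set of 1 symbol. Slfn5 had 3 probe sets, Slfn1 and Slfn9 had 2 each and the other four genes had 1 each. The rule uses the symbol alone, but the family was picked with earlier results of these data known.

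Biotin-labelled total RNA was read on 23 arrays, and every value below is a deposited log2 signal. The groups were C57BL/6 mice (B6) and BALB/c mice (BALB), each with CF-/- (CF) and CF+/+ (control) genotypes and each in females and males. There were 3 arrays of each of the 8 combinations, except 2 of B6 male CF. Neither the age of the mice, the nature of the CF allele nor the number of animals behind each group is given in the sources used here. The p-values therefore rest on the spread among these arrays, part or all of which may be technical.

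Schlafen proteins form a family of interferon-inducible regulators found in mammals, and the mouse genes lie in a single cluster on chromosome 11. The short forms, Slfn1 and Slfn2, consist of little more than the core that is conserved across the family. They are known for holding lymphocytes and monocytes in a resting state. The intermediate forms, Slfn3 and Slfn4, carry a further linker domain, and Slfn4 is known from macrophages and other myeloid cells. The long forms, Slfn5, Slfn8 and Slfn9, add a helicase-like domain. Immune cells are a known source of Schlafen transcripts, and in RNA of whole tissue more cells of a type and more RNA per cell cannot be told apart.

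The promoters of 5 members are shown because their genes are members of 1 cluster that gave unlike calls between CF and control lungs. RefSeq's promoter table (GRCm38.p6) held all 7 members, and the 250 bases before each start site were searched on both strands for the core of the interferon-stimulated response element, spelled AAANNGAAA, where N is any base. Each sequence is written in the direction of its gene, 5′ to 3′, with matches to the core in capitals. A match on the opposite strand reads as the reverse complement.
Slfn1, chr11:83116570-83116819, + strand: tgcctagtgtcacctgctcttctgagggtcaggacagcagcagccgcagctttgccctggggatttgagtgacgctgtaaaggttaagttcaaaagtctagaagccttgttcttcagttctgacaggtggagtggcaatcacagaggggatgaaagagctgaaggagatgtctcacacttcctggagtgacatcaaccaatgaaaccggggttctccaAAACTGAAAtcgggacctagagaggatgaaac
Slfn2, chr11:83064862-83065111, + strand: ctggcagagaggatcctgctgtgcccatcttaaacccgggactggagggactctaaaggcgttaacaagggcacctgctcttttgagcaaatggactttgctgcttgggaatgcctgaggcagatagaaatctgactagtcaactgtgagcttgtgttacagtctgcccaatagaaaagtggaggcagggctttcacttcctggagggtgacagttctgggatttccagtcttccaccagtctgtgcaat
Slfn4, chr11:83174936-83175185, + strand: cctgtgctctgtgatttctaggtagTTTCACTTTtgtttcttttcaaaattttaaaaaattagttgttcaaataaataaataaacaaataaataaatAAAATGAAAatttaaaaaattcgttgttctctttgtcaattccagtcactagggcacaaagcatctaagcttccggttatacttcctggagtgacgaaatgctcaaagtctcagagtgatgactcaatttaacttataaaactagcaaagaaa
Slfn8, chr11:83020811-83021060, - strand: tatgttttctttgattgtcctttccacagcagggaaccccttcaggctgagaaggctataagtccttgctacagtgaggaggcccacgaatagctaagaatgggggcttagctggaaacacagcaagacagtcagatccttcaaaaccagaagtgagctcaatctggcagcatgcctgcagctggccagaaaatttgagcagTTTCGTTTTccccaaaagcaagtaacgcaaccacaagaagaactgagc
Slfn9, chr11:82991831-82992080, - strand: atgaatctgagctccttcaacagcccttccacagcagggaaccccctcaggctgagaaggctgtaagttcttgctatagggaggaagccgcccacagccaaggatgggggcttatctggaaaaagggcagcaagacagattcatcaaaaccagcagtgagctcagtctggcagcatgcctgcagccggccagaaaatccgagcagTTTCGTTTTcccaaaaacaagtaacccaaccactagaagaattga
The core was found in the promoters of Slfn1, Slfn4, Slfn5, Slfn8 and Slfn9, that is in 5 of 7, and was not found in those of Slfn2 and Slfn3. Among all 32851 promoters of this length in the table, 9.37% held it. Slfn4 had 2 matches, and Slfn5 had 2 that overlapped each other. Read in the other frame, GAAANNGAA, the element was matched in 3 members (Slfn5, Slfn8 and Slfn9) and in 7.13% of all promoters, and in each of these 3 promoters at least 1 match overlaps a match of the core. Slfn5 has a further match in this frame that lies clear of the core. The interferon-gamma-activated site TTCNNNGAA was found in 0 of 7 members and in 7.02% of all promoters. The promoters of Slfn8 and Slfn9 were alike, with 80.2% identity (210 of 262 aligned columns), whereas every other pair of members shared 45.5% to 53.4%. These are matches of letters in a window, and binding was not measured.

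Lung markers were high on every array (Sftpc 13.55 to 13.75, Scgb1a1 13.57 to 13.75), array medians lay between 4.56 and 4.64, and any pair of arrays correlated at 0.971 to 0.996. Cftr, the gene named by the genotype, read 5.40 to 5.85 in BALB controls and 3.49 to 4.42 in BALB CF lungs, without overlap. In B6 its ranges overlapped, with 4.04 to 4.58 in controls and 3.86 to 4.31 in CF lungs. Markers of other tissues stood apart on 9 arrays, where the mean of a list of intestine, squamous epithelium or skeletal muscle genes was more than 1 log2 unit above the genes' medians over all arrays. These were 2 B6 control arrays (female control 1 and male control 3) and 7 BALB arrays: all 3 female CF arrays (squamous epithelium and muscle, and in 1 of them intestine too), female controls 1 and 3 and male controls 1 and 2 (intestine). No B6 CF array (0) and no BALB male CF array (0) was among them. In BALB the CF contrast therefore runs together with these markers: the intestine score was 0.44 to 2.30 in controls and -0.28 to 1.07 in CF lungs, and BALB values rest on all arrays unless a sentence says otherwise. The CF effects in BALB, the strain comparisons and the gene lists are also given without those arrays or with the tissue scores as covariates.

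Between CF and control lungs, the genes that moved were the short forms Slfn1 and Slfn2 and the intermediate form Slfn4, all of them higher in CF. Slfn1 was 2.32-fold higher in B6 and 2.49-fold in BALB, Slfn2 1.52-fold and 1.44-fold, and Slfn4 2.12-fold and 3.19-fold. The long form Slfn8 was 1.45-fold higher in BALB alone by the same threshold, while the probe sets of Slfn5 and Slfn9, the other long forms, did not pass in either strain. In limma's fit with Benjamini-Hochberg adjustment at 0.05, 3 of the 11 probe sets passed in B6, where 4.71% of all probe sets did (2.72% in the direction of higher in CF). In BALB 4 of 11 passed, against 4.92% of all probe sets (2.60% higher in CF). Of all probe sets 0.715% were higher in CF in both strains, and 3 of the 11 members were (Slfn1, Slfn2 and Slfn4). The median difference over the 11 members was 0.05 in B6 and 0.10 in BALB, against 0 over all probe sets in each strain.

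**Figure D1:**
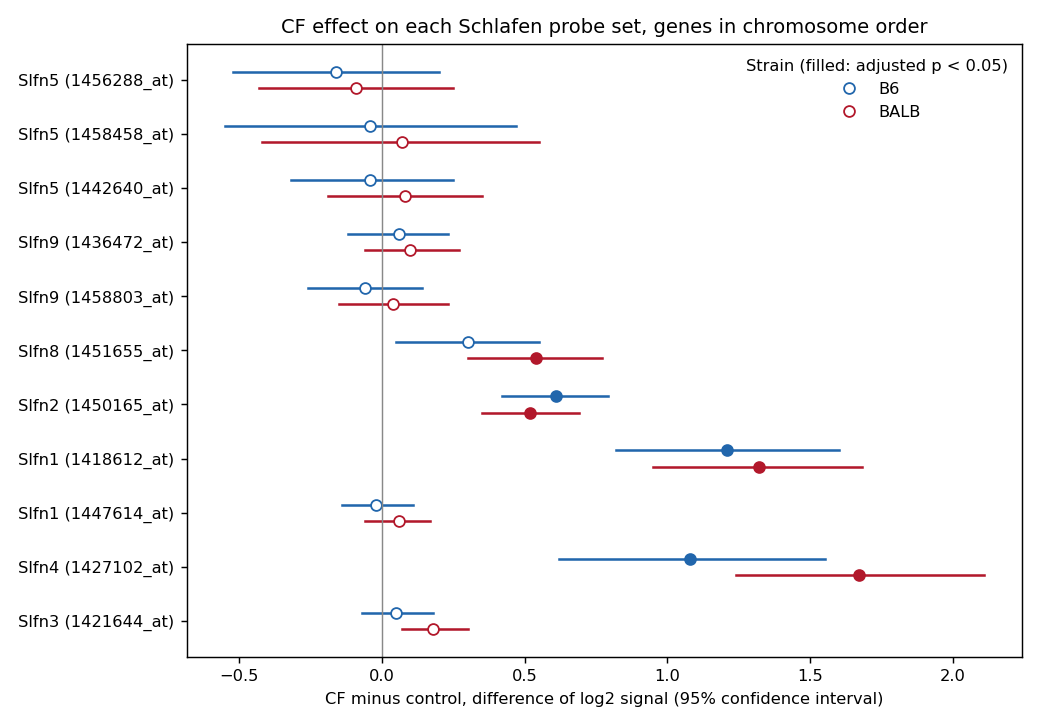
Difference of log2 signal between CF and control lungs for the 11 Schlafen probe sets in B6 (blue) and BALB (red), with 95% confidence intervals. Genes run from top to bottom in their order on chromosome 11, filled points have an adjusted p under 0.05, and Slfn1, Slfn2 and Slfn4 each have a filled point in both strains.

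Slfn1, a short form linked to the resting state of T cells, read 3.67, 4.08 and 4.84 (lowest, median and highest of 6) in B6 controls and 4.24, 5.27, 5.16, 5.99 and 5.74 in the 5 B6 CF lungs. In BALB it read 3.46, 4.10 and 4.35 in controls and 5.10, 5.26 and 5.54 in CF lungs (lowest, median and highest of 6). In BALB every CF array lay above every control array, while in B6 the groups overlapped through female CF 1, the lowest CF value. The CF effect was 1.21 in B6 (SE 0.19, adjusted p = 0.00064) and 1.32 in BALB (SE 0.18, adjusted p = 0.000178). The means over arrays were 3.97 in BALB controls, 4.16 in B6 controls, 5.28 in B6 CF lungs and 5.29 in BALB CF lungs. The fit weighs the sexes equally, whereas the mean of B6 CF arrays holds 3 females and 2 males, so the sign of a small difference can change between them. Between strains of equal genotype the fit did not pass, with BALB minus B6 at -0.19 in controls (SE 0.18, adjusted p = 0.545) and -0.09 in CF lungs (SE 0.19, adjusted p = 0.804). The strain difference of the CF effect was 0.10 with a 95% confidence interval from -0.44 to 0.64. The other Slfn1 probe set, 1447614_at, read 2.33 to 2.57 on all arrays, and its differences were -0.02 in B6 and 0.06 in BALB (adjusted p = 0.933 and 0.673), so the 2 probe sets of the gene disagreed and the result for Slfn1 rests on the brighter one.

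Slfn2, the short form whose loss in mice leaves T cells and monocytes unable to stay at rest, read 6.48, 6.61 and 6.86 in B6 controls and 6.73, 6.99, 7.13, 7.63 and 7.43 in B6 CF lungs. In BALB it read 5.81, 6.26 and 6.41 in controls and 6.59, 6.71 and 6.85 in CF lungs. Again the BALB groups did not overlap and the B6 groups did, through female CF 1 (6.73) and female control 1 (6.86). The CF effect was 0.61 in B6 (SE 0.09, adjusted p = 0.000319) and 0.52 in BALB (SE 0.08, adjusted p = 0.00077). The strain difference of this effect was -0.08 (95% confidence interval -0.33 to 0.17, adjusted p = 0.817). The level itself was lower in BALB than in B6 both in controls (-0.46, SE 0.08, adjusted p = 3e-04) and in CF lungs (-0.55, SE 0.09, adjusted p = 8.47e-05). The mean of BALB CF lungs, 6.70, was thus near that of B6 controls, 6.64.

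Slfn4, the intermediate form known from myeloid cells, had the highest CF effect of the family in BALB. It read 4.49, 5.02 and 5.93 in B6 controls and 5.21, 5.51, 6.24, 6.41 and 6.86 in B6 CF lungs. In BALB it read 5.07, 5.27 and 6.24 in controls and 6.64, 7.09 and 7.63 in CF lungs. The BALB groups did not overlap, and the B6 groups overlapped only between the sexes: within females and within males every B6 CF array was above every B6 control array. The CF effect was 1.08 in B6 (SE 0.22, adjusted p = 0.00612) and 1.67 in BALB (SE 0.21, adjusted p = 9.58e-05). The difference between the strains' effects, 0.59 (SE 0.31, 95% confidence interval -0.05 to 1.23, adjusted p = 0.372), did not pass. The levels themselves did differ among CF lungs, where BALB was 0.95 above B6 (SE 0.22, adjusted p = 0.00409), while in controls the difference was 0.36 (SE 0.21, adjusted p = 0.304). These comparisons use the same CF and control arrays as the CF effects.

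A further probe set is annotated to both Slfn4 and Slfn3, cannot be assigned to either gene and was not counted among the 11. It read 3.23, 3.55 and 3.74 in B6 controls and 3.63, 3.65, 3.82, 3.99 and 4.30 in B6 CF lungs. In BALB it read 3.60, 3.62 and 3.85 in controls and 4.31, 4.72 and 5.20 in CF lungs, again without overlap. Its CF effects were 0.43 in B6 (SE 0.12, adjusted p = 0.0499) and 1.05 in BALB (SE 0.12, adjusted p = 2.93e-05), and their difference was 0.62 (SE 0.17, adjusted p = 0.0516). Slfn3 itself, through its only probe set of 1 symbol, read 2.34 to 2.74 on all arrays, with a CF effect of 0.05 in B6 (SE 0.06, adjusted p = 0.745) and 0.18 in BALB (SE 0.06, adjusted p = 0.0669).

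Slfn8, a long form, read 4.49, 4.79 and 5.34 in B6 controls and 4.77, 5.05, 5.18, 5.17 and 5.53 in B6 CF lungs. In BALB it read 4.49, 4.76 and 5.16 in controls and 5.19, 5.29 and 5.57 in CF lungs. The BALB groups lay just apart, by the gap between male control 3 and female CF 3, and the B6 groups overlapped widely. The CF effect was 0.54 in BALB (SE 0.11, adjusted p = 0.00739) and 0.30 in B6 (SE 0.12, adjusted p = 0.174), and the difference of the effects was 0.24 (SE 0.16, 95% confidence interval -0.11 to 0.58, adjusted p = 0.547). In all, CF and control arrays did not overlap for 4 of the 11 probe sets in BALB (Slfn1, Slfn2, Slfn4 and Slfn8), against 1.91% of all probe sets. In B6 the count was 0 of 11, against 2.41% of all.

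**Figure D2:**
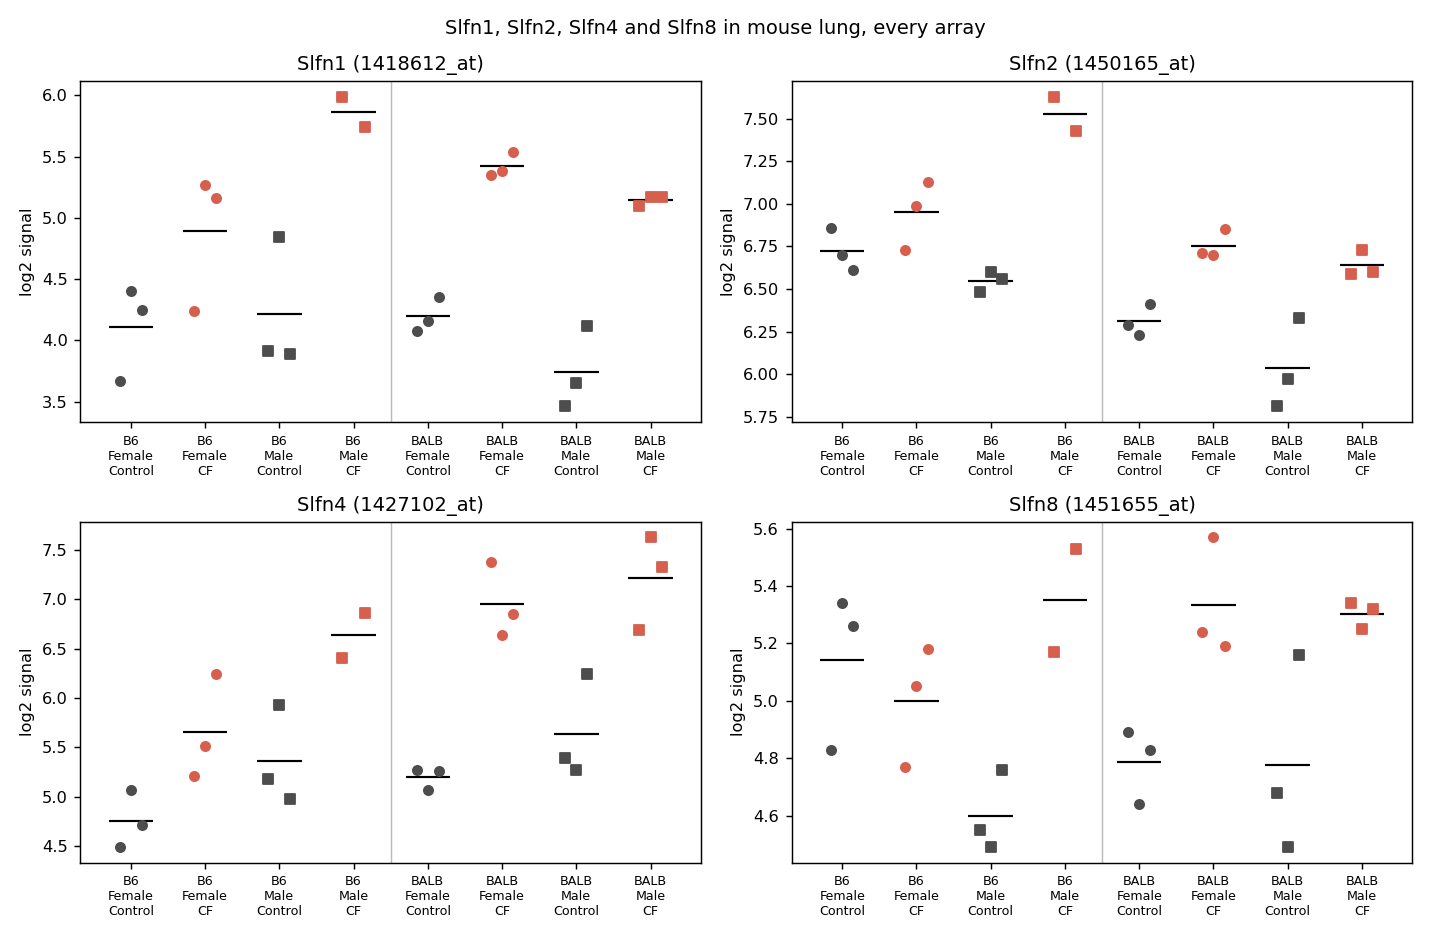
Log2 signal of Slfn1, Slfn2, Slfn4 and Slfn8 on each of the 23 arrays, by strain, sex and genotype (circles female, squares male, grey control, red CF), with a line at each group's mean. In BALB, right of the vertical line, the CF arrays lie above the control arrays in all 4 plots, and in B6 the male CF arrays are the highest for Slfn1 and Slfn2; each plot has its own vertical scale, which does not start at 0.

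The arrays with markers of other tissues bear on the BALB values. With the 3 tissue scores as covariates, 0 of the 11 probe sets passed in BALB: Slfn1 had 1.19 (SE 0.27, adjusted p = 0.121), Slfn4 1.80 (SE 0.34, adjusted p = 0.0575), Slfn2 0.44 (SE 0.14, adjusted p = 0.335) and Slfn8 0.31 (SE 0.18, adjusted p = 0.701). Calls over all probe sets went from 2217 to 30 in that fit. Without the 9 arrays, an alternative added after the data were seen, the CF effect in BALB was fitted in males only. BALB female control 2, though not among the 9, was thus dropped as well. This left 3 male CF arrays against 1 male control. That control, male control 3, read highest of the 3 BALB male controls for Slfn1, Slfn2, Slfn4 and Slfn8. Its intestine score was still 0.63, against -0.14, 0.04 and -0.05 in male CF 1, 2 and 3. The intestine marker thus still ran with the genotype in this fit. The values were then 1.02 for Slfn1, 0.98 for Slfn4, 0.30 for Slfn2 and 0.15 for Slfn8 (adjusted p = 0.171, 0.244, 0.346 and 0.704). The other 7 probe sets did not pass in either fit: Slfn3 had 0.28 with the covariates and 0.30 without the arrays (adjusted p = 0.372 and 0.272), and the brightest Slfn5 probe set -0.24 and -0.13. The probe set shared by Slfn4 and Slfn3 had 1.18 with the covariates (SE 0.19, adjusted p = 0.0159) and 1.11 without the arrays (SE 0.25, adjusted p = 0.0508). In BALB males alone, with all arrays kept, Slfn1 (1.41), Slfn4 (1.59) and Slfn2 (0.60) passed, as 1.93% of all probe sets did, and Slfn8 did not (0.53, adjusted p = 0.104). In B6 the same 3 members passed in each of these fits: Slfn1 had 1.05 with the covariates and 1.02 without the arrays, Slfn4 0.92 in both and Slfn2 0.63 and 0.64.

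For the strain difference of the CF effect, 0 of 11 Schlafen probe sets passed, against 2.54% of all probe sets. Between the control lungs of the strains, 2 of 11 passed (Slfn5 higher and Slfn2 lower in BALB), where 15.6% of all probe sets did. Between CF lungs 4 of 11 passed (Slfn4 and 2 probe sets of Slfn5 higher, Slfn2 lower in BALB), where 18.2% of all did. With the tissue scores as covariates 0 of 11 passed in controls, where Slfn2 had -0.41 (adjusted p = 0.181) and the brightest Slfn5 probe set 0.70 (adjusted p = 0.238). In CF lungs 2 of 11 passed in that fit, Slfn4 and Slfn2. The share of all probe sets that passed there is not given here, so this count cannot be set against it. Without the 9 arrays, 2 BALB and 4 B6 controls were left, and the brightest Slfn5 probe set passed (0.96, SE 0.21, adjusted p = 0.00881) while Slfn2 did not (-0.32, SE 0.11, adjusted p = 0.0896), among 4462 calls in all. Between the CF males, 3 of BALB and 2 of B6, 2 of 11 passed, among 5743 calls over all 45037 probe sets. These were Slfn2 (-0.90, SE 0.12) and the same Slfn5 probe set (0.85, SE 0.22), and Slfn4 did not pass (0.58, SE 0.30, adjusted p = 0.263).

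Slfn5, a long form, passed the test between the strains and not between the genotypes. Its brightest probe set, 1456288_at, read 6.04, 6.45 and 6.93 in B6 controls and 6.22, 6.20, 6.34, 6.11 and 6.46 in B6 CF lungs. In BALB it read 6.44, 7.16 and 7.27 in controls and 6.52, 6.93 and 7.64 in CF lungs. Among CF lungs every BALB array lay above every B6 array, and among controls 1 BALB array (male control 2, 6.44) lay within the B6 range. BALB minus B6 was 0.63 in controls (SE 0.16, adjusted p = 0.00934) and 0.70 in CF lungs (SE 0.17, adjusted p = 0.00582). The second probe set, 1458458_at, gave 0.61 (SE 0.23, adjusted p = 0.0852) and 0.71 (SE 0.25, adjusted p = 0.0479), and the call in CF lungs held in only 6 of 23 fits that each left out 1 array (adjusted p = 0.000338 to 0.262). The dimmest, 1442640_at, gave 0.06 and 0.18 (adjusted p = 0.839 and 0.436), so the probe sets of Slfn5 disagreed on the strains. On the CF genotype none of the 3 passed: the differences were -0.16 to -0.04 in B6 and -0.09 to 0.08 in BALB. The 95% confidence intervals were -0.52 to 0.20 in B6 and -0.43 to 0.25 in BALB for the brightest probe set, -0.55 to 0.47 and -0.42 to 0.55 for the second, and -0.32 to 0.25 and -0.19 to 0.35 for the dimmest.

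Slfn9, the long form whose promoter is most like that of Slfn8, read 4.40 to 4.88 on one probe set and 3.71 to 4.29 on the other. Its CF effects were -0.06 and 0.06 in B6 and 0.04 and 0.10 in BALB, with 95% confidence intervals within -0.26 to 0.27. All 4 adjusted p-values were 0.557 or more. Its strain differences did not pass either (0.02 and 0.05 in controls, 0.10 and 0.12 in CF lungs, adjusted p = 0.436 or more). Whether the probe sets of these closely related genes tell the transcripts apart was not tested.

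**Figure D3:**
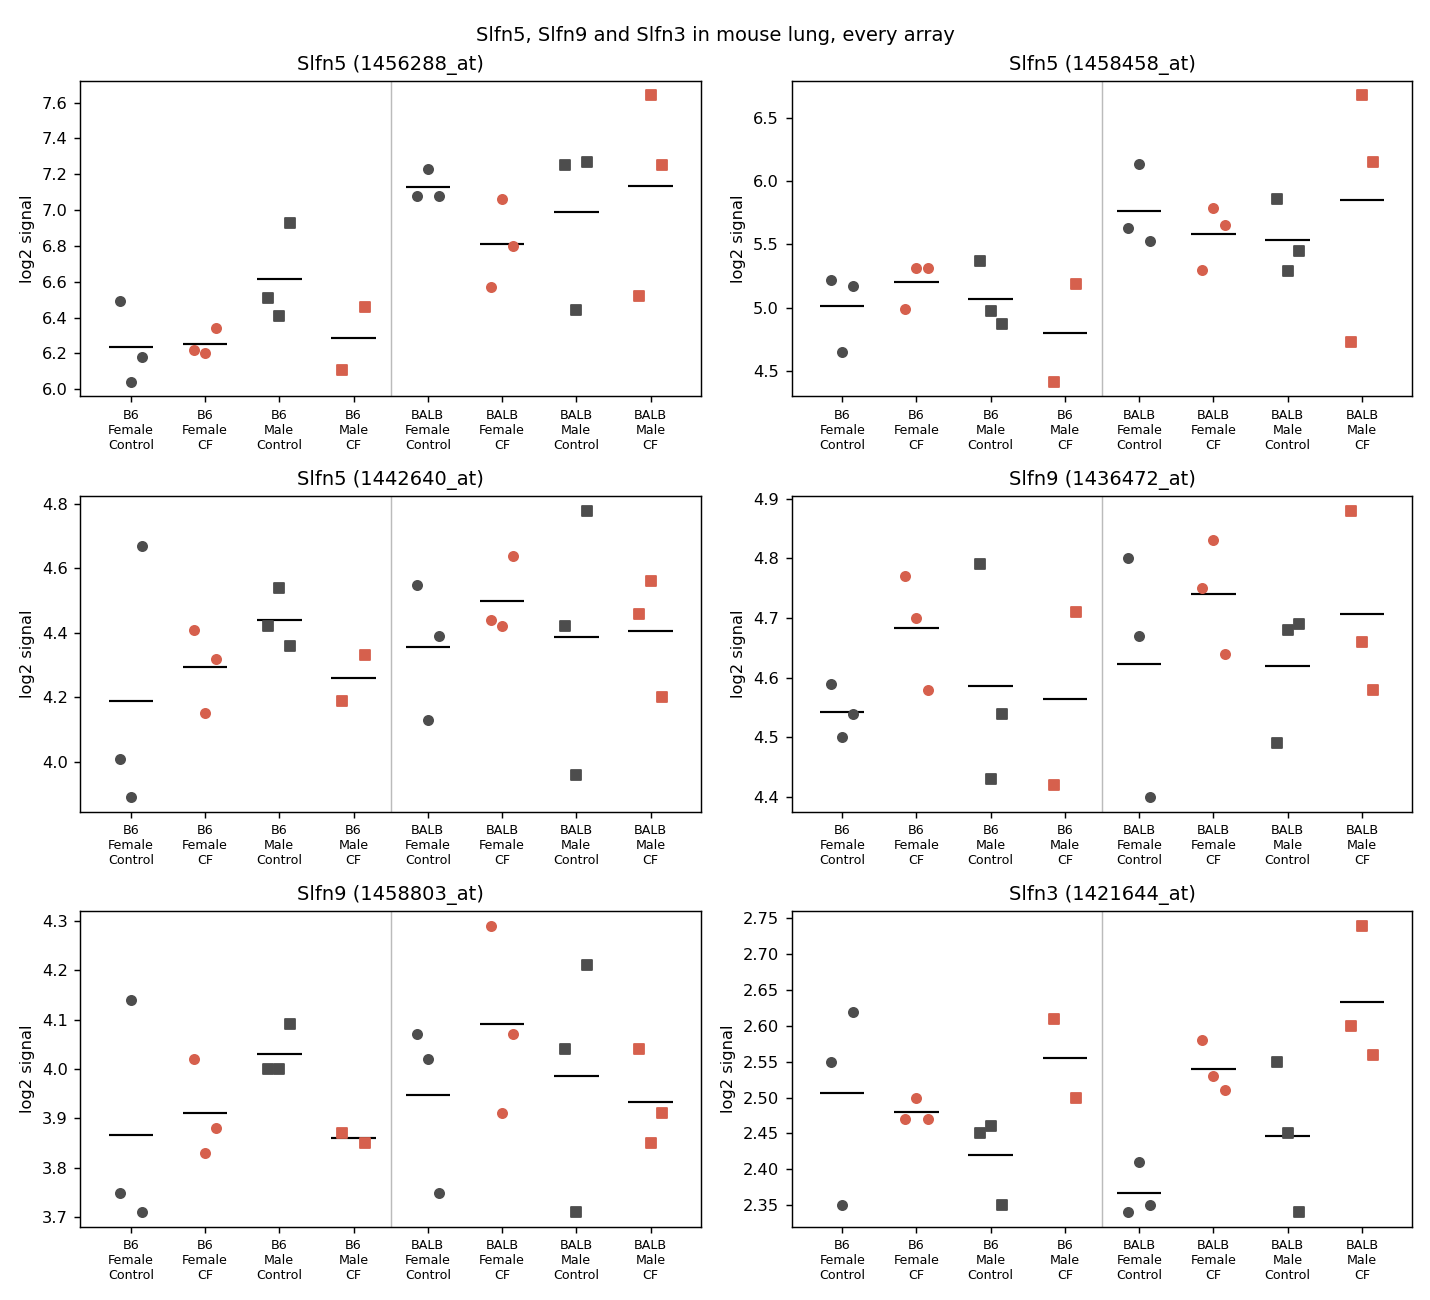
Log2 signal of the 3 Slfn5, 2 Slfn9 and 1 Slfn3 probe sets on each array by strain, sex and genotype (circles female, squares male, grey control, red CF), with a line at each group's mean. The 2 brighter Slfn5 probe sets have higher group means in BALB, right of the vertical line, than in B6, and in none of the 6 plots did CF and control arrays separate in a strain; vertical scales differ and do not start at 0.

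The brightness of a probe set limits what it can show. The highest group mean was no lower than 4.59, the median over all probe set means, for 7 of the 11 probe sets. Slfn1 1418612_at was one of those and passed this line through its CF groups, so its place among them is no support. The other 4 probe sets (Slfn1 1447614_at, Slfn3, Slfn5 1442640_at and Slfn9 1458803_at) stayed below it in every group.

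The sexes were compared within each strain. In B6 males 4 of 11 probe sets passed (Slfn1, Slfn2, Slfn4 and Slfn8, all higher in CF), where 6.24% of all did. In B6 females 0 of 11 passed (0.815% of all), in BALB females 2 of 11 (Slfn1 and Slfn4, 1.19% of all) and in BALB males 3 of 11. Slfn2 was the member with a called sex difference of the CF effect, in B6: 1 of 11 against 1.75% of all probe sets. Its B6 females read 6.86, 6.70 and 6.61 in controls and 6.73, 6.99 and 7.13 in CF lungs, and its B6 males read 6.48, 6.60 and 6.56 in controls and 7.63 and 7.43 in CF lungs. The female values overlapped and the male values did not. The effect was 0.23 in females (SE 0.12, adjusted p = 0.556) and 0.98 in males (SE 0.13, adjusted p = 0.000136), a difference, female minus male, of -0.76 (SE 0.17, adjusted p = 0.0284). The male effect rests on 2 CF arrays. The call on the difference was lost when any of 6 B6 arrays was left out: male CF 1 (-0.66, adjusted p = 0.147), male control 1 (-0.73, 0.0708), male control 2 (-0.79, 0.0507), male control 3 (-0.76, 0.0589), female control 2 (-0.77, 0.0609) or female CF 1 (-0.65, 0.0844).

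Slfn8 in B6 had an effect of -0.14 in females (SE 0.16, adjusted p = 0.887) and 0.74 in males (SE 0.18, adjusted p = 0.0149). It read 4.83, 5.34 and 5.26 in female controls and 4.77, 5.05 and 5.18 in female CF lungs, and 4.55, 4.49 and 4.76 in male controls and 5.17 and 5.53 in male CF lungs. The male values separated and the female values overlapped, but the difference of -0.88 (SE 0.24) missed the threshold with an adjusted p of 0.0638. The sex differences of Slfn1 (-0.87, SE 0.38, adjusted p = 0.286) and Slfn4 (-0.37, SE 0.45, adjusted p = 0.791) in B6 did not pass either. In BALB 0 of 11 members had a called sex difference, and 0.0178% of all probe sets did. Between female and male controls over both strains 0 of 11 members passed, against 2.43% of all.

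The known interferon-induced genes were counted on 1 probe set a gene, with the shares of all probe sets given above as background. Of 29 measured type I interferon-induced genes, 8 rose in B6 CF lungs and 11 in BALB CF lungs and 0 fell in either, with median differences of 0.23 and 0.32 (0.01 and -0.01 over all genes). In B6 Oasl2, which acts in antiviral defence, had 0.82 (SE 0.14) and Irf7, a transcription factor of the interferon response, 0.66 (SE 0.12). In BALB Ifit3, an antiviral protein, had 0.64 (SE 0.07) and Rtp4 0.72 (SE 0.13). Of 18 interferon-gamma-induced genes 11 rose in each strain, with medians of 1.01 in B6 and 0.78 in BALB. The chemokine Cxcl9 had 2.47 in B6 (SE 0.19), and Nlrc5, an activator of MHC class I genes, 1.38 in BALB (SE 0.31). Of the 18 genes 2 had a called strain difference of the CF effect, both lower in BALB. These were Cxcl9 (-2.23, SE 0.27, adjusted p = 0.000185) and Cxcl10 (-0.70, SE 0.18, adjusted p = 0.0362). Of the 29 type I genes 0 had one. Of 12 interferon ligands, receptors and signalling genes, Irf9, a subunit of the factor that binds the response element, rose in B6 (0.35, SE 0.10, adjusted p = 0.0486), and 0 of 12 did in BALB. Ifng itself had 0.37 in B6 (SE 0.11, adjusted p = 0.0578). Its strain difference of -0.32 (SE 0.15, adjusted p = 0.313) did not pass. In BALB 1 of 29 type I and 0 of 18 interferon-gamma-induced genes passed with the tissue scores as covariates, and as many without the 9 arrays, with medians of 0.38 and 0.90 in the first and 0.40 and 1.13 in the second.

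The 3 BALB male CF arrays differed in the interferon-gamma-induced genes. The mean over the interferon-gamma-induced list, relative to each gene's median over all arrays, was 1.70 and 1.23 in BALB male CF 2 and 3, but -0.12 in BALB male CF 1. Slfn4 on these 3 arrays read 7.63, 7.33 and 6.69 and the probe set shared by Slfn4 and Slfn3 5.20, 5.06 and 4.34, so both were lowest on the array where the list was lowest. Slfn1 read 5.17, 5.17 and 5.10, Slfn2 6.73, 6.60 and 6.59, and Slfn8 5.25, 5.32 and 5.34. Slfn5, which did not pass between the genotypes, was also lowest on male CF 1 by its brighter probe sets. It read 7.64, 7.25 and 6.52 on 1456288_at, 6.68, 6.15 and 4.73 on 1458458_at, and 4.56, 4.20 and 4.46 on 1442640_at. The order on these 3 arrays was thus not particular to Slfn4. In BALB females 0 of 18 interferon-gamma-induced and 0 of 29 type I interferon-induced genes rose (medians 0.10 and 0.09). Of all probe sets 1.19% passed there. In the same comparison Slfn1 had 1.22 (SE 0.25, adjusted p = 0.0238) and Slfn4 1.76 (SE 0.30, adjusted p = 0.00884). All 3 of those female CF arrays carried the squamous epithelium and muscle markers. In B6 females 1 of 18 interferon-gamma-induced genes and 0 of 29 type I genes rose, and in B6 males 12 of 18 and 13 of 29 did. Of all probe sets 0.815% passed in B6 females and 6.24% in B6 males. In BALB males 13 of 18 and 14 of 29 rose (medians 1.45 and 0.56), where 1.93% of all probe sets passed. BALB male controls 1 and 2 carried the intestine markers. A link between these lists and the Schlafen values was not tested.

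Genes of the resting state and of the cell cycle were counted because the short Schlafen forms are known for quiescence. Of 13 quiescence genes 3 rose in B6: Il7r, the receptor for a survival signal of resting lymphocytes (0.83, SE 0.10), Klf2, a factor that keeps T cells at rest (0.47, SE 0.12), and Btg1 (0.22, SE 0.06). In BALB Il7r rose (0.69, SE 0.10) and 4 of 13 fell, among them Klf2 (-0.87, SE 0.12), Klf4 (-0.85, SE 0.13) and Tob1 (-0.34, SE 0.08). The strains differed in Klf2 by -1.35 (SE 0.17, adjusted p = 0.000204). Of 16 cell cycle genes 12 rose in B6 (median 0.73), with Tk1 at 0.77 (SE 0.08) and Rrm2, both of them enzymes of DNA precursor synthesis, at 1.24 (SE 0.13). In BALB 3 of 16 rose (median 0.14), and 8 of 16 had a called strain difference, all lower in BALB. For Slfn1 and Slfn2 no strain difference of the CF effect passed. With the tissue scores as covariates, and likewise without the 9 arrays, 0 of 13 quiescence and 0 of 16 cell cycle genes passed in BALB.

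Markers of immune cells moved with the genotype too. Of 13 neutrophil markers 6 rose in each strain and 0 fell (medians 0.62 in B6 and 0.45 in BALB), with Csf3r, the receptor for granulocyte colony-stimulating factor, at 0.98 in both strains (SE 0.17 and 0.16) and S100a9 at 1.06 in B6 (SE 0.25) and 1.77 in BALB (SE 0.24). The mean over the neutrophil list ran from 0.40 to 0.95 in B6 CF lungs and -0.71 to 0.62 in B6 controls, and from -0.04 to 0.78 in BALB CF lungs and -0.74 to -0.19 in BALB controls. Of 10 monocyte markers 5 rose in B6 and 4 in BALB, where Ccr2, the receptor that brings monocytes into tissue, had 1.24 (SE 0.15). The monocyte score ran from 0.27 to 0.76 in B6 CF lungs and -0.05 to 0.29 in B6 controls, and from -0.17 to 0.21 in BALB CF lungs and -0.67 to -0.22 in BALB controls. Of 12 T cell markers 9 rose in B6 and 4 in BALB, and the score ran from 0.14 to 0.62 in B6 CF lungs and -0.66 to -0.11 in B6 controls, and from -0.10 to 0.50 and -0.55 to 0.38 in BALB. Of 9 B cell markers 1 rose in B6 and 8 in BALB, and of 9 natural killer cell markers 5 rose in B6 and 1 in BALB. Of 10 alveolar macrophage markers 1 rose in B6 and 0 in BALB. Counts by sex follow in the order neutrophil, monocyte, T cell, B cell, natural killer cell and alveolar macrophage. In B6 females 5, 0, 0, 0, 1 and 0 markers rose, and in B6 males 2, 4, 9, 5, 5 and 1. In BALB females 5, 2, 2, 0, 0 and 0 rose, and in BALB males 2, 1, 0, 3, 1 and 0. The median difference of the neutrophil markers in B6 was 0.75 in females and 0.24 in males. With the tissue scores as covariates 0 markers of each of these 6 lists passed in BALB. Without the 9 arrays 1 monocyte marker rose, 1 T cell and 1 alveolar macrophage marker fell and no other marker of these lists passed, with medians of 0.26 for neutrophil, 0.25 for monocyte, -0.22 for T cell, 0.45 for B cell and -0.13 for natural killer cell markers. The part of these cells in the Schlafen values was not tested.

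**Figure D4:**
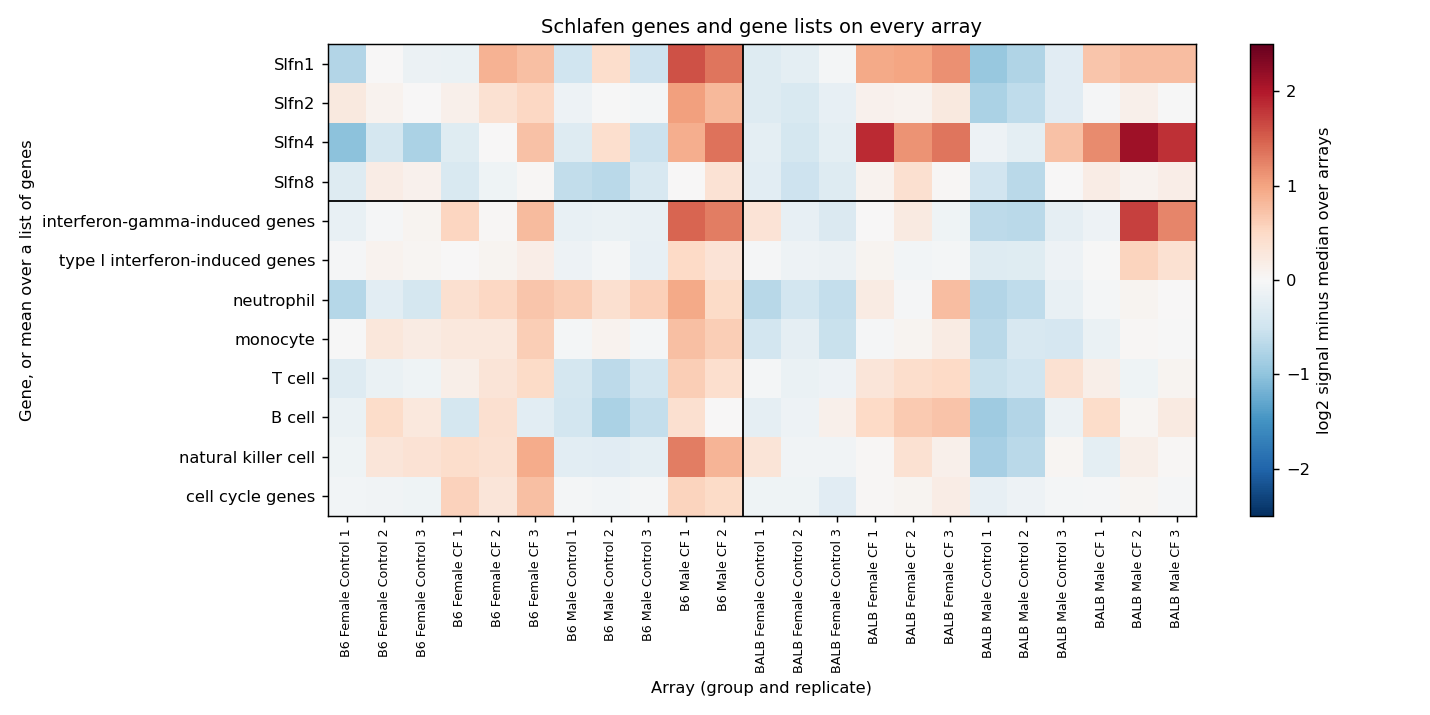
Log2 signal of Slfn1, Slfn2, Slfn4 and Slfn8 (above the horizontal line) and the mean over lists of interferon-induced, cell type and cell cycle genes (below it) on each of the 23 arrays, as differences from the median over arrays (red higher, blue lower), with B6 left and BALB right of the vertical line. Slfn1 and Slfn4 are red on all 6 BALB CF arrays, while the interferon-gamma-induced list is at 1.70 and 1.23 on male CF 2 and 3 and at -0.12 on male CF 1.

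The members that rose also varied together from array to array once the strain means were taken out. After the mean of each strain was subtracted, Slfn1 and Slfn2 correlated at 0.91 over the 23 arrays, Slfn1 and Slfn4 at 0.86 and Slfn2 and Slfn4 at 0.77. Slfn8 then correlated with Slfn1, Slfn2 and Slfn4 at 0.70, 0.72 and 0.64. Slfn5 1456288_at then had -0.21 with Slfn1 and -0.12 with Slfn8. Without the subtraction Slfn1 and Slfn2 correlated at 0.77, Slfn1 and Slfn4 at 0.77 and Slfn2 and Slfn4 at only 0.35. Slfn8 then had 0.70, 0.54 and 0.61 with Slfn1, Slfn2 and Slfn4. All points share the genotype groups and the RNA of the same lungs, so these values describe the arrays and carry no test.

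The genes outside the family whose values ran most like each member were taken among 12383 genes, by Pearson's r over the 23 arrays after the strain means were subtracted. The shift between CF and control was left in. A gene that moved with the genotype can thus run like a member that moved, and r carries no test. For Slfn1 these were Fxyd5, Selplg and Lsp1 (r = 0.92 each), Cd300lb and AB124611 (0.91 each). Selplg is the leukocyte ligand of the selectins. For Slfn2 they were Hcst, Rap1gap2, Lpxn and Gimap7 (0.93 each) and Cd52 (0.92), a surface protein of lymphocytes. Slfn4 ran with Igsf6 (0.92), Sirpb1a and Csf3r (0.91), Clec4e (0.90) and Cxcr2 (0.89), of which Csf3r and Cxcr2 are receptors of neutrophils and stand in the neutrophil list. Slfn8 ran with Itga4 (0.94), an integrin of leukocytes, Ptprc (0.91), which encodes the leukocyte surface protein CD45, Stap1 (0.89), Fyb (0.88) and D830026I12Rik (0.87). For Slfn5, Slfn9 and Slfn3 the likest genes were further off after this subtraction: Uba6 and Wapl with Slfn5 (0.77 each), Ttll11 with Slfn9 (0.75) and Snhg3 with Slfn3 (0.76). Without it the likest genes were Cd300lb for Slfn1 (0.91), Lpxn for Slfn2 (0.95), Steap4 for Slfn4 (0.83) and Itga4 for Slfn8 (0.89). They were Pus7 for Slfn5 (0.85), Ttll11 for Slfn9 (0.77) and Snhg3 for Slfn3 (0.76). Of the genes named for Slfn4 only Csf3r (0.79) was then still among its likest 5.

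Along chromosome 11 the genes run in the order Slfn5, Slfn9, Slfn8, Slfn2, Slfn1, Slfn4 and Slfn3 in the RefSeq annotation of GRCm38.p6. The genes called in both strains, Slfn2, Slfn1 and Slfn4, thus follow one another with no other measured Schlafen gene of a single symbol between them, and Slfn8 lies on the Slfn2 side. Between Slfn8 and Slfn2 lies Slfn10-ps, a pseudogene that is not a member, with a CF effect of 0.20 in BALB (SE 0.06, adjusted p = 0.0481; 0.15 without the 9 arrays, adjusted p = 0.612) and -0.01 in B6 (SE 0.06, adjusted p = 0.969). Among 20 measured neighbours outside the cluster, 10 on each side, 2 passed in B6 and 0 in BALB. Those 2 were the chemokine genes Ccl5 (2.40, adjusted p = 1.12e-05) and Ccl9 (0.55, adjusted p = 0.0364), named after their values were seen. Of the 20 neighbours 3 differed between the control lungs of the strains.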

How the data were processed

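Total RNA of whole right lungs was measured on 23 arrays. The values are those of the deposited value table; their log2 scale was inferred from the values (1.79 to 13.82), and how the authors summarised and normalized them is not stated in the sources used here. All 23 columns were matched to samples by title, and 0 pairs of columns were identical. Control probe sets (64) were left out, leaving 45037, of which 34945 had 1 symbol in the platform annotation, 932 several and 9160 none.

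A model of 8 group means was fitted in limma 3.58.1 (R 4.3.3; lmFit, then eBayes). It had 15 residual degrees of freedom and a prior of 5.81. Benjamini-Hochberg adjustment ran over all probe sets, separately for each of 12 comparisons (5 main). The script was tested on simulated data. A strain's CF effect averages the female and the male effect. The number of arrays limits the precision: an exact two-sided permutation test of 3 against 3 arrays cannot give a p under 0.1.

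Every member was named. From each of 17 gene lists (225 genes), counted on the probe set of highest mean, at most 4 were named, by lowest p. For likeness the 5 genes of highest r were taken, among genes at or above the median in some group. The members and lists were chosen with earlier results of these data known. Alternatives were quantile normalization, a filter on dim probe sets, strains fitted alone, sex as an additive term, an intensity trend, array weights, a replicate block, tissue scores as covariates, another choice of probe set, and leaving out arrays.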

Additional observations from a re-analysis of the deposited data

Results flagged for a closer look

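The CF effect on Slfn2 in B6 differed between the sexes by -0.76 on the log2 scale (female minus male, SE 0.17, adjusted p = 0.0284 in limma's fit). The effect was 0.23 in females (SE 0.12, 95% confidence interval -0.02 to 0.47, adjusted p = 0.556) and 0.98 in males (SE 0.13). The call on the difference was lost when any of 6 B6 arrays was left out, with adjusted p = 0.0118 to 0.147 over the 23 omissions. Both B6 male CF arrays, at 7.63 and 7.43, were above all 3 male controls, and the female CF arrays at 6.99 and 7.13 were above all 3 female controls while that at 6.73 was not. The sex difference in BALB was -0.15 (SE 0.16, adjusted p = 0.807).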

How the results depend on the processing

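Slfn1 1418612_at passed the dim filter only through its CF groups, so its calls under that filter are no support. The calls of Slfn1, Slfn2 and Slfn4 in B6 held under every alternative run. In BALB they held except with the tissue scores as covariates and without the arrays with markers of other tissues, where 0 Schlafen probe sets passed and 30 and 494 of all probe sets did. With the covariates the strain comparison of controls had 2056 calls in all and 0 Schlafen calls. That of CF lungs had 2 Schlafen calls, with the total over all probe sets not given here. The strain difference of the CF effect had 126 calls in all. Leaving arrays out one at a time, Schlafen calls were 3 to 3 in B6, 4 to 5 in BALB, 0 to 0 for the strain difference, 2 to 3 in controls, 3 to 4 in CF lungs and 0 to 2 for the sex difference in B6. Calls over all probe sets were then 852 to 2329 in B6 (852 without male CF 1, 1329 without female control 3, 1403 without female CF 3), 1368 to 2851 in BALB (1368 without female control 1, 1371 without male control 1), 591 to 1568, 5898 to 7309, 6220 to 8486 and 245 to 1183. Where an arm kept 1 array, it was assumed to vary like the other groups. Slfn1's strain difference then ran from -0.06 to 0.21, and the CF effect of Slfn5 1456288_at in BALB from -0.22 to 0.07. That effect was 0.01 with array weights and 0.15 in males alone. With the covariates BALB minus B6 was 0.17 for Slfn8 in controls and 0.07 for Slfn1 in CF lungs, each with the other sign.

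Other counts moved by more than 1.5 times. Calls over all probe sets in BALB were 1406 with each strain fitted alone, 3824 with array weights and 867 in males alone. In B6 they were 1071 with sex as an additive term. For the strain difference they were 757 with additive sex and 2043 with array weights. For the sex difference in B6 they were 1488 with array weights, and 2 Schlafen probe sets passed, Slfn8 being the second, with the dim filter, the replicate block, the covariates and array weights. Slfn3 in BALB passed with an intensity trend (adjusted p = 0.0337) and without B6 female control 2 (adjusted p = 0.0476). The replicate numbers do not pair the arrays: 11 pairs of the same number had deviations that correlated at -0.17 to 0.07. With the replicate block Slfn8's sex difference was -0.94 (adjusted p = 0.0382), Slfn5 1458458_at in CF lungs lost its call (adjusted p = 0.05), and no other call among the single Schlafen values changed. By the probe set of lowest p, 2 quiescence genes rose in BALB in place of 1. The other frame of the response element was found in 3 promoters in place of 5. In total 227 single values kept direction and side of the threshold, 15 lost a call, 6 gained one and 4 changed sign, array-by-array omissions aside. The cause of these changes was not tested.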
